A study of Homo sapiens with 12 samples.

Results

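The retinoic acid pathway was examined in human alveolar rhabdomyosarcoma cells through 9 genes that make, bind, sense or remove retinoic acid. They were chosen by symbol, with earlier results of these data known. The genes were ALDH1A2 and ALDH1A3, which make retinoic acid, the receptors RARA, RARB and RARG, the binding proteins CRABP1 and CRABP2, the retinal reductase DHRS3 and the hydroxylase CYP26B1. All 9 were on the array, with 15 probes among 41000 gene probes, and the array carried 30238 distinct gene names. A pair of probes was present for 6 of the 9 genes, and a single probe for RARB, CRABP2 and DHRS3.

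The cultures were the parental, untransfected Rh30 line (WT), 1 Rh30 control clone that stably carries a non-targeting shRNA (CON), and 1 Rh30 clone that stably carries an shRNA against PAX3-FKHR (KD1). Rh30 is a human alveolar rhabdomyosarcoma cell line, and PAX3-FKHR, also called PAX3-FOXO1, is the fusion transcription factor of this tumor. Both clones were kept in puromycin at 1 μg/mL and WT was not, and RNA was taken 24 h after plating. Because each kind of clone was present once, an effect of the shRNA and a property of the clone cannot be told apart, and WT differs from both clones in transfection and in puromycin. The 12 two-color arrays compared KD1 with CON (KD1/CON), KD1 with WT (KD1/WT) and WT with CON (WT/CON), each with 2 biological replicates that were each hybridized as a dye-swap pair. The 3 comparisons use the same 6 RNA extracts, so that each extract was read in 4 channels and their values are not independent of each other. All WT/CON arrays were on slide 1, and the KD1 arrays of replicates 1 and 2 were on slides 2 and 3, so that slide and replicate cannot be told apart in the KD1 comparisons. The labels do not say how the biological replicates were grown, and p-values measure the spread between these extracts.

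Retinol is oxidized to retinal and then, by the ALDH1A enzymes, to retinoic acid. DHRS3 works against this flow by reducing retinal back to retinol, CRABP1 and CRABP2 carry retinoic acid in the cytosol, and CYP26 enzymes hydroxylate it and thereby inactivate it. Retinoic acid acts through the RAR receptors, which bind DNA with an RXR partner at direct repeats of a short half-site, and it is widely known for promoting differentiation and for patterning embryonic tissue, limb and muscle included. RARB and CYP26A1 are textbook target genes that carry such a repeat close to a transcription start.

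To show what these control regions look like, the 250 bases upstream of RefSeq transcription starts (assembly GRCh38.p14) were searched on both strands, and 17 windows were found for the 9 genes. The repeat with 5 spacer bases (DR5) was searched as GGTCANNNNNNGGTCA, GGTCANNNNNNGTTCA, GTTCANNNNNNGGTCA or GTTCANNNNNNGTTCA, and the repeat with 2 spacer bases (DR2) in the same way with 3 bases between the fixed letters. In addition, ATTA, the core bound by homeodomains, was searched, as were the paired-domain cores GTTCT, together with GTTCC, then GTTAT, and lastly GTTAC, because the fusion protein holds both DNA-binding domains of PAX3. Matches to different motifs were allowed to overlap. A DR5 match was found in 1 of the 17 windows, that of a RARB start, and a DR2 match in 0. Over all 35116 windows of this length the share was 0.148% for DR5 and 0.145% for DR2. ATTA was found in 7 of the 17 windows and in 47.4% of all windows, and a paired-domain core in 10 of 17 and in 71.1% of all. The sequences given here in the direction of transcription are the RARB window at chr3:25428013-25428262 (+ strand) and, for comparison, a CYP26A1 window at chr10:93073643-93073892 (+ strand), with the DR5 match in capitals. They are followed by the ALDH1A3 window at chr15:100879581-100879830 (+ strand), where ATTA is in capitals, and the CYP26B1 window at chr2:72147863-72148112 (− strand). ALDH1A3 and CYP26B1 are shown because their mean ratios in KD1/CON lay farthest below 0 among the members tested.
RARB: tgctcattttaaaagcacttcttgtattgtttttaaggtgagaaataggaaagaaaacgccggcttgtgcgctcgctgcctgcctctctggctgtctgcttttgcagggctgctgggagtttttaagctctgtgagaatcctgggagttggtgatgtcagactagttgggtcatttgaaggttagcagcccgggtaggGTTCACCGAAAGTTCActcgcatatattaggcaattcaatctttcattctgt
CYP26A1: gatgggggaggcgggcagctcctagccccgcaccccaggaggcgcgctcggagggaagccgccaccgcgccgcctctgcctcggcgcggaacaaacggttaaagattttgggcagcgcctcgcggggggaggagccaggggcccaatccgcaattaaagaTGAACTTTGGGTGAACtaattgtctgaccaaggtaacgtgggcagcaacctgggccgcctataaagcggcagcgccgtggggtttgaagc
ALDH1A3: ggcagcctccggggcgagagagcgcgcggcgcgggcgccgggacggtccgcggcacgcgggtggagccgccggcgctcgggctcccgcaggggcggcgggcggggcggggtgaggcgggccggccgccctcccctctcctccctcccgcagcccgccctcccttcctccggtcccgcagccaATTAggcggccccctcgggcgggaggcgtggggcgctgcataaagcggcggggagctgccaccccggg
CYP26B1: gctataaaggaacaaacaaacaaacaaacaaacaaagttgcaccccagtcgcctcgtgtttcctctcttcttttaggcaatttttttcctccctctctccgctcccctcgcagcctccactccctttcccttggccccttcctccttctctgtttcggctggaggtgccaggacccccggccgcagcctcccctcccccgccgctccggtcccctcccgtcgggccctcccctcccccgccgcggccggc
The RARB repeat lay from position −52 to −37 relative to the start, and the CYP26A1 window held its repeat on the other strand. The ALDH1A3 window held a single ATTA, from −68 to −65, and no match to a DR5, a DR2 or a paired-domain core. The CYP26B1 window held 1 paired-domain core and no DR5, DR2 or ATTA. These are matches of letters in a window and were not measured as binding.

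ALDH1A3 was the only gene among the 9 with a probe that passed the test in any comparison. It encodes a retinal dehydrogenase that makes retinoic acid. The probe A_23_P205959, for NM_000693, lies at chr15:99274026-99274085 of NCBI36 (+ strand), and its sequence as deposited starts with the following 30 of 60 bases. The other ALDH1A3 probe, A_24_P917280, for BC009245, lies at chr15:99239020-99239079 on the same strand. No gene annotation of NCBI36 was used here, so that probes are not assigned to exons or introns.
A_23_P205959: atatagacactaaccttgatagtgatacgt
A_24_P917280: gtagttttatttgtaatatcagcttcagag
For A_23_P205959, the signal intensity per extract, scaled between arrays, was 1477 and 1559 in WT, 1757 and 4682 in CON, and 583.5 and 568 in KD1. Both KD1 extracts were therefore below all 4 extracts of the other cultures, and CON replicate 2 stood far above the rest. The probe was well above background in all 24 channels.

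The log2 ratios of this ALDH1A3 probe were −1.53 and −3.08 in the replicates of KD1/CON, −1.35 and −1.45 in those of KD1/WT, and −0.24 and −1.58 in those of WT/CON. The mean was −2.30 ± 1.1 (SD, n = 2) in KD1/CON, a 4.94-fold lower signal, and −1.40 ± 0.07 in KD1/WT, a 2.64-fold lower signal. The ratio was below 0 on all 4 arrays of each comparison, and ranged from −3.21 to −1.44 in KD1/CON and from −1.68 to −1.23 in KD1/WT. The ratio measured directly in KD1/CON and that taken through WT, the sum of KD1/WT and WT/CON, differed by 0.06 in replicate 1 and by −0.05 in replicate 2 on the log2 scale.

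**Figure D1:**
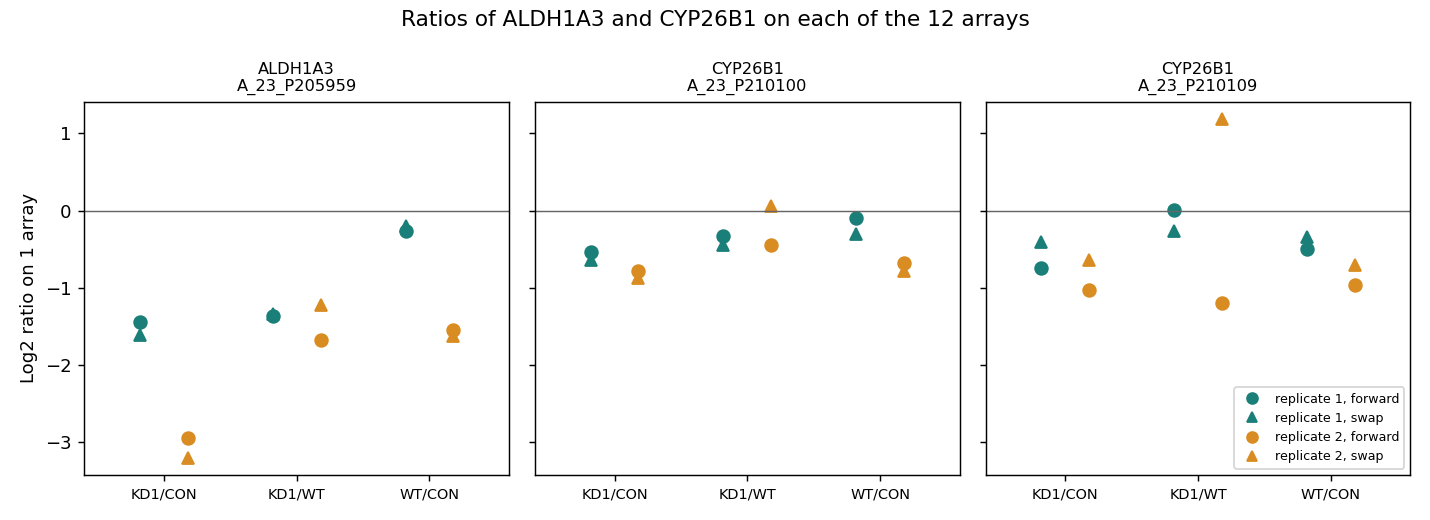
Log2 ratios on each of the 12 arrays for the ALDH1A3 probe and the CYP26B1 probes; circles and triangles are the dye orders of a swap pair, and color marks the biological replicate. ALDH1A3 was below 0 on every array, from −3.21 to −1.44 in KD1/CON, and A_23_P210109 of CYP26B1 had −1.20 and 1.19 on the swap pair of KD1/WT replicate 2.

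By limma on the 6 replicate ratios with Benjamini-Hochberg adjustment over all probes tested, ALDH1A3 was lower in KD1/CON with an adjusted p of 0.0295, but did not pass the threshold of 0.05 in KD1/WT (adjusted p = 0.131) or in WT/CON (adjusted p = 0.278). The residual degrees of freedom of this fit were set to 2, because the comparisons share extracts. With the 3 that the fit itself leaves, the adjusted p in KD1/CON was 0.0794 and the call was lost. On simulated data with noise of single arrays, the fit with 2 made more false calls than its threshold allows. In the limma fit to the 6 extract values with the replicate number as a block, the adjusted p-values of the 3 comparisons were 0.0711, 0.186 and 0.317, so that the call in KD1/CON was lost there too. The 95% interval of the difference in this fit, not adjusted for the number of probes, was −3.26 to −1.36 in KD1/CON and −2.37 to −0.43 in KD1/WT. In the fit to the replicate ratios, leaving out an extract of KD1 or CON leaves only 1 KD1/CON ratio. It was −1.53 without CON replicate 2 or KD1 replicate 2, and −3.08 without KD1 replicate 1 or CON replicate 1. No spread between KD1/CON replicates is left there, so that whether the call holds cannot be judged. The call was lost without either WT replicate (adjusted p = 0.0701), although the ratio itself does not use WT. In KD1/WT, the mean stayed −1.40 without CON replicate 1 or CON replicate 2. That ratio does not use CON, and only the spread of the fit changed.

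The signal gap between the CON extracts was 2.66-fold for ALDH1A3, and 99.3% of the 21870 probes tested in all comparisons had a smaller gap between these extracts. Between the KD1 extracts the gap was 1.03-fold, and between the WT extracts it was 1.06-fold. Less ALDH1A3 RNA per cell and fewer cells that express it cannot be told apart in RNA from whole cultures. The other ALDH1A3 probe, A_24_P917280, was well above background in 0 of 24 channels, and its ratios, between −0.30 and 0.68, carry no measurement of the gene.

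ALDH1A2, the other retinal dehydrogenase among the members, was not well above background in any of the 24 channels with either of its probes. A_24_P73577 (chr15:56033824-56033883, − strand) had intensities of 3.08 and 3.13 in WT, 5.57 and 9.45 in CON, and 4.0 and 2.93 in KD1. A_23_P99956 (chr15:56041514-56041573, − strand) had intensities between 3.23 and 5.65. No fold is given for ALDH1A2 and it was not tested.

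The retinoic acid receptors RARA and RARG were detected in all 3 cultures, and RARB in none. The RARA probe A_32_P5251 (chr17:35766454-35766513, + strand) had intensities of 8084 and 11177 in WT, 8340 and 8740 in CON, and 7405 and 13423 in KD1. KD1 held both the lowest and the highest extract, so that the cultures overlapped. Its log2 ratios were −0.15 and 0.55 in KD1/CON and −0.13 and 0.22 in KD1/WT. The other RARA probe, A_23_P207842 (chr17:35766700-35766759, + strand), had 0.06 and 0.13 in KD1/CON and 0.13 and −0.10 in KD1/WT. The 95% interval for KD1/CON, not adjusted for the number of probes, ran from −0.35 to 0.71 for the first RARA probe and from −0.32 to 0.51 for the second.

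For RARG, the probe A_23_P387552 (chr12:51890832-51890891, − strand) had intensities of 176.7 and 175.3 in WT, 165.4 and 169.7 in CON, and 176.6 and 219.4 in KD1. WT lay above CON in both extracts by less than the gap between the KD1 extracts. The log2 ratios were 0.08 and 0.34 in KD1/CON, with a 95% interval of −0.24 to 0.63, and −0.02 and 0.27 in KD1/WT. The second RARG probe, A_23_P117125 (chr12:51891821-51891880, − strand), passed the limit for testing in KD1/WT and WT/CON, where its means were 0.19 and −0.15. No RARA or RARG probe passed the threshold in any comparison, with adjusted p-values from limma between 0.652 and 0.982.

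RARB was well above background in 0 of 24 channels on its only probe, A_24_P3249 (chr3:25613626-25613685, + strand), and its intensities lay between 3.09 and 3.29 in all 6 extracts. In all 24 channels the processed signal was a surrogate that stands for a spot not above background, so that its ratios, within 0.15 of 0, hold no information on the gene. CYP26A1, whose window with a DR5 match is given beside that of RARB, was well above background in 9 of 24 channels (1 of 8 in WT, 4 of 8 in CON and 4 of 8 in KD1) and was not tested. No detection at this signal does not show that a transcript is absent.

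**Figure D2:**
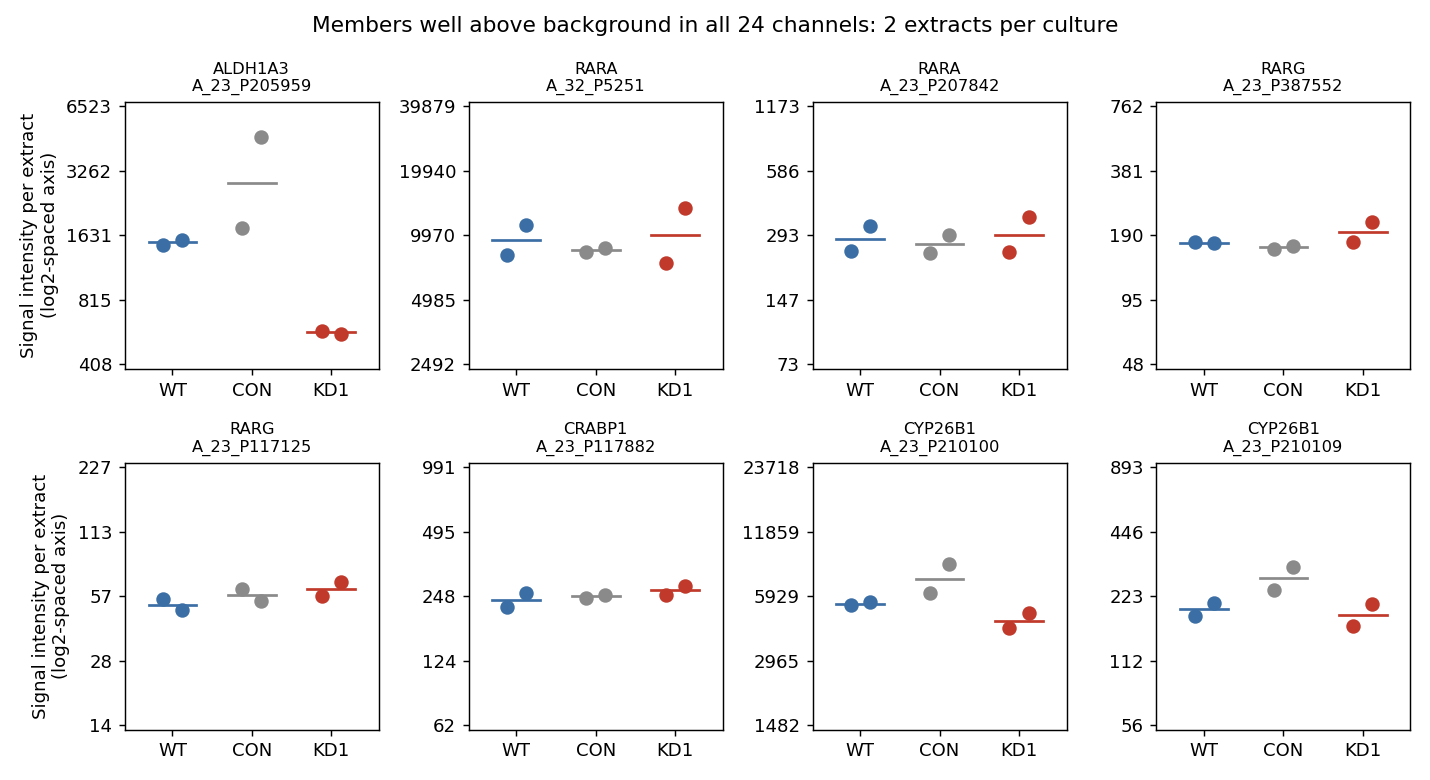
Signal intensity per extract, on a log2-spaced axis of 16-fold height or slightly more in every panel, for the 8 member probes well above background in all 24 channels; points are the 2 extracts of a culture and lines their geometric mean. Scales differ between panels, and levels of different probes are not comparable. ALDH1A3 was lowest in both KD1 extracts (583.5 and 568), and CYP26B1 was highest in both CON extracts on both probes.

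Of the cytosolic binding proteins, CRABP1 was detected in every extract. Its probe A_23_P117882 (chr15:76427455-76427514, + strand) had intensities of 221.1 and 255.2 in WT, 243.4 and 251.1 in CON, and 251.7 and 277.4 in KD1. The replicates had opposite signs in each comparison, with log2 ratios of 0.14 and −0.25 in KD1/CON, 0.40 and −0.43 in KD1/WT, and −0.32 and 0.15 in WT/CON. In replicate 2, KD1 was thus above CON and WT by intensity but below both by ratio. Single channels of this probe ran from 144.1 to 453.8 in CON. The other CRABP1 probe, A_24_P324871 (chr15:76418842-76418901), for AK096006, lies on the opposite strand, was well above background in 16 of 24 channels and was not tested. CRABP2, which delivers retinoic acid to the receptors, had intensities of 42.2 and 22.6 in WT, 31.5 and 39.3 in CON, and 40.8 and 35.0 in KD1 (A_23_P115064, chr1:154936203-154936262, − strand). The cultures overlapped, and the probe was tested in KD1/WT and WT/CON, where its replicates had opposite signs.

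DHRS3 was close to background. Its probe A_23_P33759 (chr1:12550697-12550756, − strand) was well above background in 5 of 24 channels, 3 of 8 in CON, 2 of 8 in KD1 and 0 of 8 in WT. The intensities were 12.2 and 21.4 in CON, 8.18 and 13.0 in KD1, and 4.01 and 7.53 in WT. CON replicate 1 overlapped the KD1 extracts, and WT was lowest in both. DHRS3 was not tested, and no fold is given.

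CYP26B1, which inactivates retinoic acid, was highest in CON on both of its probes. A_23_P210100 (chr2:72209987-72210046, − strand) had intensities of 5369 and 5556 in WT, 6130 and 8351 in CON, and 4210 and 4926 in KD1. The cultures did not overlap, in the order CON, WT, KD1. A_23_P210109 (chr2:72210938-72210997, − strand) had 181.1 and 207 in WT, 238.6 and 306.2 in CON, and 162.6 and 205.9 in KD1, so that CON was again highest while KD1 and WT overlapped.

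In KD1/CON, the log2 ratios of the CYP26B1 probes were −0.59 and −0.83 for A_23_P210100 and −0.58 and −0.83 for A_23_P210109. Their means, −0.71 ± 0.17 and −0.71 ± 0.18 (SD, n = 2), correspond to a 1.64-fold and a 1.63-fold lower signal in KD1, and all 4 arrays were below 0 for both. They did not pass the threshold, with adjusted p-values from limma of 0.150 and 0.142. In KD1/WT the ratios were −0.39 and −0.19 for the first probe and −0.12 and 0.00 for the second. The value near 0 for the second probe in replicate 2 is the mean of −1.20 and 1.19 on the arrays of its swap pair. In WT/CON the ratios were −0.20 and −0.73 for the first probe and −0.42 and −0.84 for the second, with adjusted p-values of 0.335 and 0.208. CYP26B1 passed the threshold in KD1/CON only when the 12 arrays were fitted as if independent, with adjusted p-values from limma of 0.00974 and 0.0482.

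**Figure D3:**
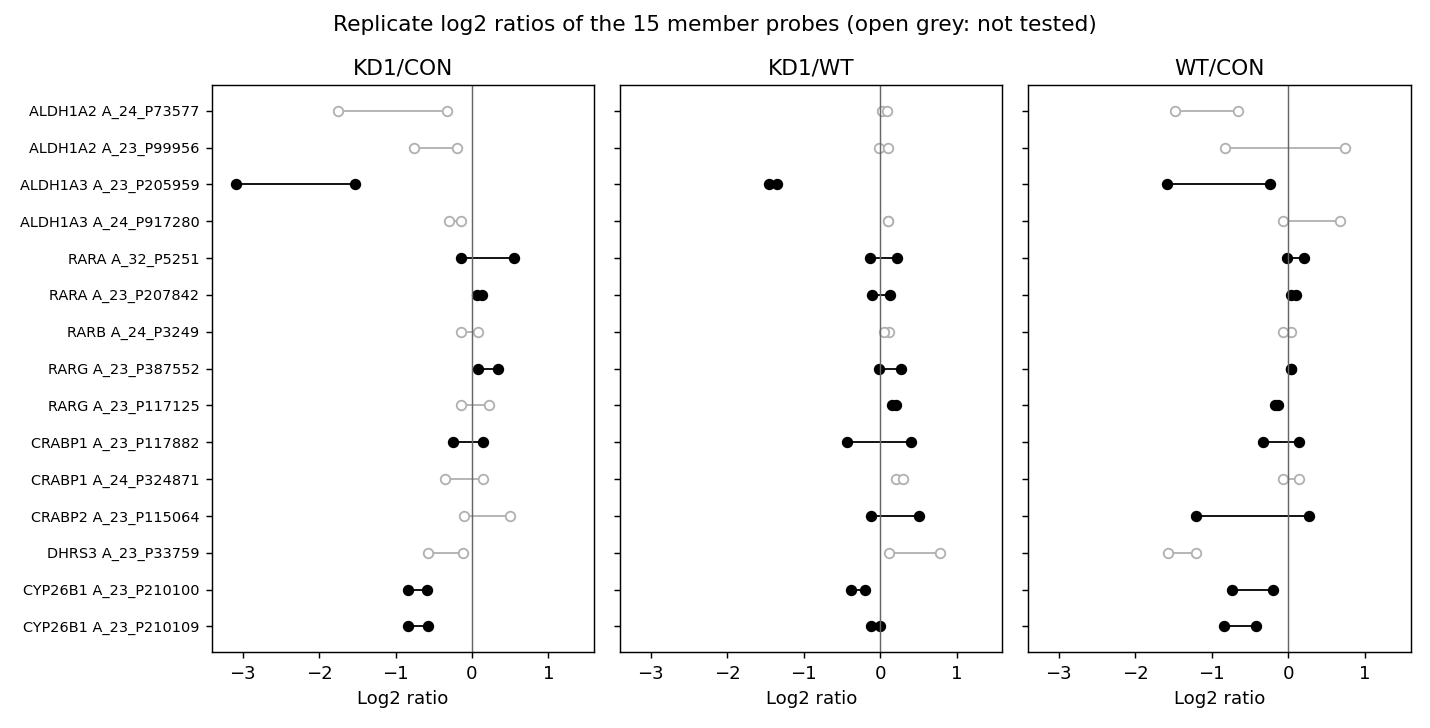
Log2 ratios of the 15 member probes in the replicates of the 3 comparisons; each line joins the 2 replicates, filled points are probes tested in that comparison and open grey points probes that were not. ALDH1A3 A_23_P205959 lies farthest from 0 in KD1/CON and KD1/WT, the CYP26B1 probes lie between −0.83 and −0.58 in KD1/CON, and the RARA and RARG probes lie around 0.

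Counted over the members, 7 probes of 5 genes were tested in KD1/CON and 8 probes were not. A probe was tested where Cy3 or Cy5 was above 99% of the negative control spots on all 4 arrays of the comparison. Of the 7, 1 was called (ALDH1A3) in the fit to replicate ratios, against 1.8% of the 21937 probes tested, and 0 in the fit to extract values, against 0.734%. In KD1/WT, 9 probes of 6 genes were tested and 0 were called in either limma fit, against 1.05% and 0.447% of all probes tested. In WT/CON, 9 probes of 6 genes were tested and 0 were called in either, against 1.42% and 0.493%. At an unadjusted p under 0.05 in the fit to replicate ratios, 3 of the 7, 1 of the 9 and 2 of the 9 member probes passed, against 17.2%, 17.2% and 16.6% of all probes. The 3 in KD1/CON were the ALDH1A3 probe and both probes of CYP26B1, so that CYP26B1 is counted by each of its probes. The median log2 ratio of the member probes tested was −0.05 in KD1/CON, 0.01 in KD1/WT and −0.15 in WT/CON, and that of all probes tested was −0.01, 0.01 and −0.03.

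Selection criteria after those of the study were read here as a mean of at least 2-fold in the same direction in both KD1 comparisons, with the same direction and a signal above the negative controls in at least 1 channel on all 8 KD1 arrays. The study's methods do not say on how many arrays that signal was required. Of the 9 genes, 5 had a probe above that limit, and 1 of these 5, ALDH1A3, met the criteria, beside 1.64% of all genes above it. As read here, 257 of 15718 genes met the criteria in either direction. That is more than the study reports, so that its selection was not reproduced. ALDH1A3 met them under each alternative tried and with each extract left out. With CON in the place of KD1, 0 of 5 genes above the limit met the criteria, beside 1.52% of all such genes, and with WT 0 of 6, beside 1.47%. The gene-wise criteria use the same arrays as the ratios above and are not a second measurement. The study itself lists ALDH1A3 among the genes lowered in KD1 on these arrays. Because the members were chosen with such results known, neither its call above nor its place here is separate support.

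The 5 genes whose 6 replicate ratios were nearest to those of ALDH1A3, by Euclidean distance over log2 values among the 21870 probes tested in all comparisons, were tcag7.1307 (distance 0.728), TFF3 (1.04), ATP8B3 (1.13), ITGB8 (1.15) and ITGB2 (1.26). TFF3, a secreted mucosal peptide, had −1.41 and −2.41 in KD1/CON, −1.37 and −1.51 in KD1/WT, and −0.40 and −0.82 in WT/CON. ITGB8 and ITGB2 are integrin β subunits. None of the 5 is on chromosome 15 with ALDH1A3. The probes of tcag7.1307 and ITGB8 are on chromosome 7, those of TFF3 and ITGB2 on chromosome 21, and that of ATP8B3 on chromosome 19.

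Other genes of retinoid uptake, conversion, clearance, receptor partnership and response were taken from lists written from general knowledge. Of 67 with a probe on the array, 33 were tested in KD1/CON, 37 in KD1/WT and 41 in WT/CON, each by 1 probe. Passing the threshold were 0 higher and 1 lower in KD1/CON, 0 higher and 1 lower in KD1/WT, and 1 higher and 1 lower in WT/CON, beside 1.8%, 1.05% and 1.42% of all probes tested. The calls belonged to ALDH1A1 and RARRES2, and both fits called the same number of genes in each comparison. The median log2 ratio of the list was −0.02, −0.14 and 0.11 in the 3 comparisons, beside −0.01, 0.01 and −0.03 for all probes tested.

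ALDH1A1, the third retinal dehydrogenase of the family, had intensities of 841.5 and 847.3 in WT, 3381 and 3976 in CON, and 476 and 427.6 in KD1. The cultures did not overlap, in the order CON, WT, KD1. How many of all probes were ordered and separated in this way was not counted. Its log2 ratio was −3.03 ± 0.28 (SD, n = 2) in KD1/CON and −2.04 ± 0.16 in WT/CON, with adjusted p-values of 0.000832 and 0.00783 from limma and 0.00470 and 0.0226 in the fit to extract values. In KD1/WT it was −0.90 ± 0.18 (adjusted p = 0.101).

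RARRES2, a chemokine-like protein first described as a retinoid-responsive gene, was higher in WT than in both clones. Its intensities were 2546 and 1328 in WT, 347.2 and 201.2 in CON, and 453.7 and 197.7 in KD1. The log2 ratio was −2.62 ± 0.22 in KD1/WT and 2.79 ± 0.03 in WT/CON (SD, n = 2), with adjusted p-values of 0.00291 and 0.00204 from limma. In KD1/CON it was 0.26 ± 0.22 (adjusted p = 0.578).

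Of the genes not called, the lowest means over both KD1 comparisons were those of HOXA4, a homeobox gene, with −0.62 and −0.73 in KD1/CON and −0.30 and −0.66 in KD1/WT, and of FGF8, a growth factor, whose replicates in KD1/CON were 0.48 and −0.92. The highest were those of RARRES3, NR2F1, BHLHE40 and RDH14. RARRES3 had −0.25 and 1.51 in KD1/CON and 0.27 and 2.48 in KD1/WT, and its intensity was 276 in KD1 replicate 1 and 3119 in KD1 replicate 2. NR2F1, an orphan nuclear receptor, had 1.34 and 1.15 in KD1/CON and −0.02 and 1.14 in KD1/WT. BHLHE40, a transcriptional repressor, had 0.18 and 0.86 in KD1/CON, and RDH14, a retinol dehydrogenase, had 0.49 and 0.75. Their adjusted p-values from limma in the KD1 comparisons were between 0.124 and 0.787.

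**Figure D4:**
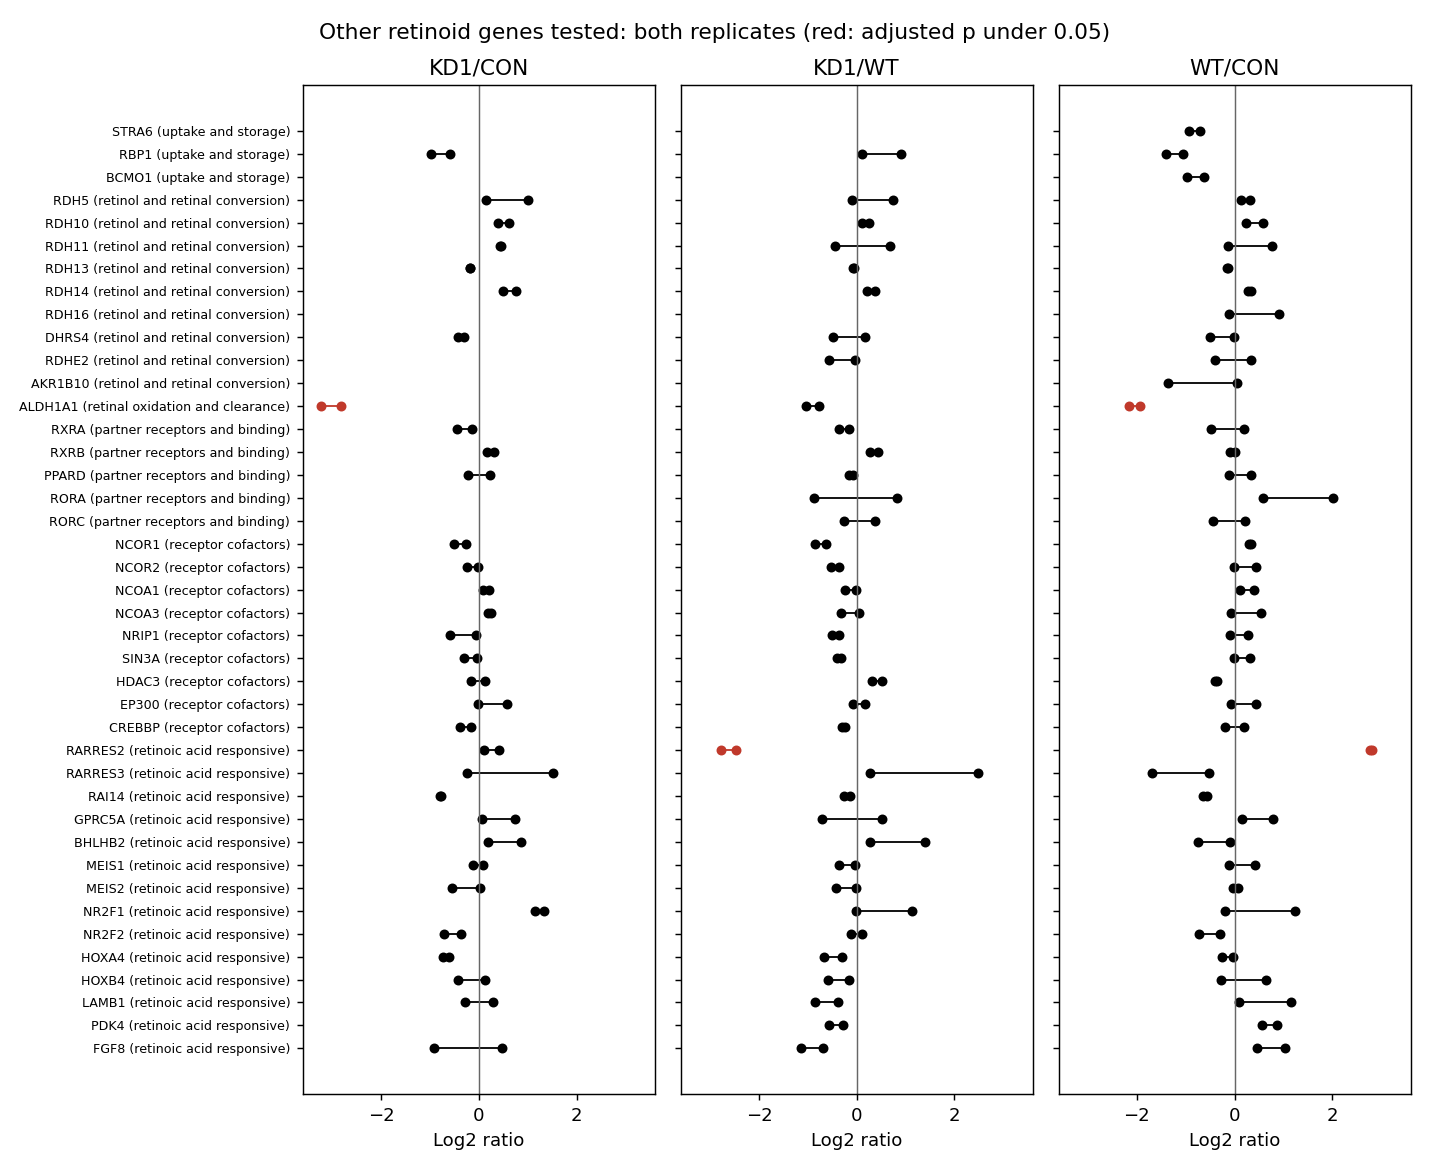
Log2 ratios of the other retinoid genes in each comparison where they were tested; each line joins the 2 replicates of a gene, and red marks an adjusted p under 0.05 in limma on the replicate ratios. The red genes are ALDH1A1 (−2.83 and −3.23 in KD1/CON, −1.93 and −2.16 in WT/CON) and RARRES2 (−2.46 and −2.78 in KD1/WT, 2.81 and 2.77 in WT/CON).

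The cultures were checked against markers. All 6 rhabdomyosarcoma markers (MYOD1, MYOG, DES, CDH15, FGFR4 and CHRNA1) were well above background on all 8 channels of each culture. Among them, MYOG, named here after its values were seen, was highest in CON. Its log2 ratios were −1.35 and −0.92 in KD1/CON and −1.96 and −1.50 in WT/CON (adjusted p = 0.0507 and 0.0184 from limma). In KD1/WT it had 0.74 and 0.46 (adjusted p = 0.227 from limma), where ALDH1A3 had −1.35 and −1.45. Mean intensity was highest in CON for FGFR4 too, in KD1 for MYOD1 and DES, and in WT for CDH15 and CHRNA1. Any part of MYOG in the ALDH1A3 and CYP26B1 values was not tested. Of 11 markers of fibroblast, epithelial, blood and endothelial cells, 4 (COL1A1, COL3A1, CD3E and PECAM1) were well above background on all 8 channels in each culture. At background on all 8 were 2 in WT, 5 in CON and 6 in KD1. The summed intensity of the 11 was 7982 and 4052 in WT, 4266 and 3548 in CON, and 4963 and 4854 in KD1. Levels of different probes are not comparable, and most of each sum was the COL3A1 probe. It had 6937 and 2766 in WT, 2981 and 2242 in CON, and 3982 and 3236 in KD1. The epithelial marker EPCAM was well above background in WT replicate 2 alone, on all 4 of its channels, with an intensity of 163.9 against 3.92 in WT replicate 1. CDH1, also epithelial, had 18.1 in WT replicate 2 against 3.44 in WT replicate 1. It was well above background in 2 of 8 channels in WT and in 0 in CON and KD1. KRT5, the third epithelial marker, was well above background in 1 channel of WT and in 0 of CON and KD1, with 3.61 and 4.53 in the WT extracts. ALDH1A3 had 1477 and 1559 in these WT extracts, and without WT replicate 2 its mean in KD1/WT was −1.35. Any part of the epithelial signal in the ALDH1A3 values was not tested.

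The PAX3 and FOXO1 probes with the highest signal had log2 ratios between −0.79 and −0.26 in the KD1 comparisons (adjusted p between 0.273 and 0.432 from limma), and transcripts of the fusion and of the unrearranged genes were not separated.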

How the data were processed

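Per the file headers, the authors used Agilent Feature Extraction 10.5.1.1 and deposited linear intensity values per spot, processed by background subtraction, detrending and lowess within each array, flags for spots well above background, and a series table of log2 ratios. The table equals the log2 ratio of the processed intensities to within 5.638e-06 for probes with 1 spot and a value other than 0, with the sign of swapped arrays already turned. All per-sample columns of the table were matched to an array. Positions are those in the deposited files (NCBI36). RNA input was 500 ng. On each array, 71.1% to 73.6% of spots in Cy3 and 64.4% to 67.8% in Cy5 were flagged as well above background. Precision is limited by how few arrays there are.

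Log2 ratios of processed signals were turned so that the first culture is the numerator, averaged over the spots of a probe without outlier flags, and averaged over each dye-swap pair. lmFit and eBayes of limma 3.58.1 (R 4.3.3) were applied to all probes with a coefficient per comparison and residual degrees of freedom set to 2 in place of 3, with Benjamini-Hochberg adjustment and a threshold of 0.05. On simulated data with noise of single arrays, this fit made more false calls than its threshold allows, whereas the limma fit to extract values, with the replicate number as a block, did not on average over its runs, and both are given. Deviations from the culture means correlated between same-numbered extracts with r = 0.541 for KD1 and CON, −0.0717 for KD1 and WT and −0.0211 for WT and CON over 21870 probes. Same-numbered extracts thus deviated together for KD1 and CON, but not for the pairs with WT. The numbers are not established as pairs across all 3 cultures beyond their arrays. Extract intensities were scaled between arrays by Aquantile. Intervals are 95% intervals of the moderated test.

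The members and lists were chosen with earlier results of these data known. Named were all member probes, the listed retinoid genes called in any comparison, the 4 with the largest mean rise and the 4 with the largest mean fall over both KD1 comparisons, PAX3 and FOXO1, and the 5 genes nearest to ALDH1A3. CYP26C1 had no probe by its name. Alternatives were normexp with an offset of 50 and loess, median centring, the series table, other filters and fits, and each extract left out. Robust eBayes was added after seeing the data. Tables and figures were made with pandas 2.3.3, scipy 1.17.1, numpy 2.4.6 and matplotlib 3.10.9 under Python 3.11.15.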

Additional observations from a re-analysis of the deposited data

How the results depend on the processing

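Among the 10 alternative settings that keep all extracts, not counting the setting used above, ALDH1A3 ranged from −2.32 to −1.92 in KD1/CON, with adjusted p from 0.00370 to 0.101. In KD1/WT it ranged from −1.42 to −1.23, with adjusted p from 0.0316 to 0.228. It was called in KD1/CON in 5 of these 10, among them the series table, which holds nearly the same values, and the fit of 12 arrays. In KD1/WT it was called in 1 of 10, the fit of 12 arrays with a dye term per slide. The number of member probes called in KD1/CON was 0 under normexp and loess, with 3 residual degrees of freedom, without a filter, in the fit to 6 extract values with the replicate block and in separate-channel values without it, and 3 in the fit to 12 arrays, which called 1 in KD1/WT. With an extract left out, a comparison that loses a replicate rests on 1 ratio, and calls of member probes are not counted there. ALDH1A3 and CYP26B1 kept their direction in KD1/CON under every setting run.

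In KD1/CON, 394 probes were called, against 26 under normexp and loess, 252 without a filter, 161 in extract values with the replicate block, 201 in separate-channel values, 3947 from 12 arrays and 114 to 479 with an extract left out. In KD1/WT, 261 were called, against 1 under normexp and loess, 154 with 3 residual degrees of freedom, 111 with the replicate block, 126 in separate-channel values, 4206 from 12 arrays and 21 to 543 with an extract left out. In WT/CON, 378 were called, against 2 under normexp and loess, 221 with median centring, 233 with 3 residual degrees of freedom, 199 without a filter, 131 with the replicate block, 114 in separate-channel values, 4265 from 12 arrays and 4 to 946 with an extract left out. Under normexp and loess 0 of the other retinoid genes were called in KD1/WT and in WT/CON. With an extract left out, a comparison that loses a replicate rests on 1 ratio. The cause of these changes was not tested.

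Values near 0 changed sign. CRABP1 became 0.10 in KD1/CON in separate-channel values, and in KD1/WT 0.15 there and 0.00215 with the replicate block. RARA A_23_P207842 became −0.0134 in KD1/WT under normexp and loess and −0.0462 with median centring. With an extract left out, the ranges that crossed 0 in KD1/CON were −0.15 to 0.55 for RARA A_32_P5251 and −0.25 to 0.14 for CRABP1. In KD1/WT they were −0.13 to 0.22 for RARA A_32_P5251, −0.10 to 0.13 for RARA A_23_P207842, −0.0154 to 0.27 for RARG A_23_P387552, −0.43 to 0.40 for CRABP1 and −0.12 to 0.50 for CRABP2. In WT/CON they were −0.0152 to 0.21 for RARA A_32_P5251, −0.32 to 0.15 for CRABP1 and −1.21 to 0.27 for CRABP2. Members not well above background (ALDH1A2, RARB, A_24_P917280) have no interpretable ratio under any setting.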
